A study of Carassius auratus with 10 samples.

Results

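The transcriptomes of goldfish radial glial cells (RGCs) exposed to secretoneurin A (SNa) and of untreated RGCs were compared gene by gene, by adding up the expression of all assembled transcripts that carried the same gene symbol. Of 17433 symbols with reads in this comparison, 13821 (79.3%) had a mean of at least 50 normalized counts over the SNa and control pools and were kept, and their log2 ratios of SNa over control are described here across 74 gene families that hold 3830 of them. The SNa group held 3 cultures that were kept with SNa at 1000 nM during 24 h. The control group held 4 cultures of the same cells without treatment, although the methods of the study count 3 controls. The pooled control values do not show which of these control cultures entered them. All cultures were RGCs from the hypothalamus and telencephalon of adult female goldfish at the third passage. A further 3 cultures received 10 µM SKF, an agonist of the dopamine D1 receptor, for 24 h and are used here only beside the same control cultures. The SNa cultures and 3 of the control cultures were sequenced on 2 lanes, and the other control culture on 1 lane.

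RGCs line the ventricles of the fish brain, where they keep the properties of neural stem cells throughout life, take up glutamate, carry fatty acids and retinoids, and make estrogens through brain aromatase. SNa is one of the short neuropeptides cut from the secretogranin II precursor, and neurons near the RGCs release such peptides. Cultured radial glia also build an extracellular matrix, and growth factors of the TGF-beta, BMP, FGF, Wnt and Notch families set whether they stay quiet, divide or mature.

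The deposited tables held 1 normalized count per transcript and group. No value could be split by culture, so no SD, test or replicate check is given for any difference. Intervals beside log2 ratios are exact binomial 95% intervals on the pooled reads and cover counting error only. Pooled reads came to 64778968 in the SNa pool and 147886694 in the control pool, of which the kept symbols held 82.3% and 81.2%. A symbol without reads in a pool was set to a floor of 3 reads, worth 4.51 normalized counts in the SNa pool and 1.99 in the control pool. Symbols were borrowed from the best protein match in other species, mostly zebrafish, so reads of near-identical goldfish copies cannot be told apart. Fewer cells of a type and less RNA per cell cannot be told apart in these bulk cultures either. At the border of the rule, *thsd7aa* had 60.2 normalized counts in the SNa pool and 39.9 in the control pool, a mean just inside 50, while *tmtops2b*, with 48.2 in the SNa pool and 51.8 in the control pool, lay just outside. Of the kept symbols, 202 had fewer than 50 normalized counts in the SNa pool and 137 in the control pool, so these passed through the other pool alone.

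Most genes had close to equal expression in both pools. On the log2 scale of SNa over control, which is used for every ratio below, the median was 0.0096, the quartiles were -0.27 and 0.28, and 77.9% of the symbols lay within 0.5 of 0. At least 2-fold higher expression in the SNa pool was seen for 69 symbols (0.499%), and at least 2-fold lower expression for 489 (3.54%). Of the 69, 33 had fewer than 50 normalized counts in the control pool. Of the 489, 130 had fewer than 50 in the SNa pool. These symbols passed the minimum mean only through the pool in which they were high. The share of symbols with a log2 ratio above 0 was 51.1%, so the excess of lower genes lay in the tail and not in the bulk of the genes. Among the 489 lower genes, 34 were lens genes and 455 were not. The 69 higher genes were scarce, with a median of 129 normalized counts in the SNa pool and 51.2 in the control pool. Lower genes had medians of 126 in the SNa pool and 376 in the control pool. Of 2128 symbols with a mean between 50 and 200, 57 were at least 2-fold higher, against 1 of 1284 symbols with a mean of 10000 or more. With a minimum mean of 200 in place of 50, 12 symbols were at least 2-fold higher and 279 lower. Lower symbols were also most frequent among scarce ones, with 210 (9.87%) of the 2128 at a mean between 50 and 200. In the abundant class, 28 symbols (2.18%) were still at least 2-fold lower. The share of 3.54% set beside families below is over all abundances.

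**Figure D1:**
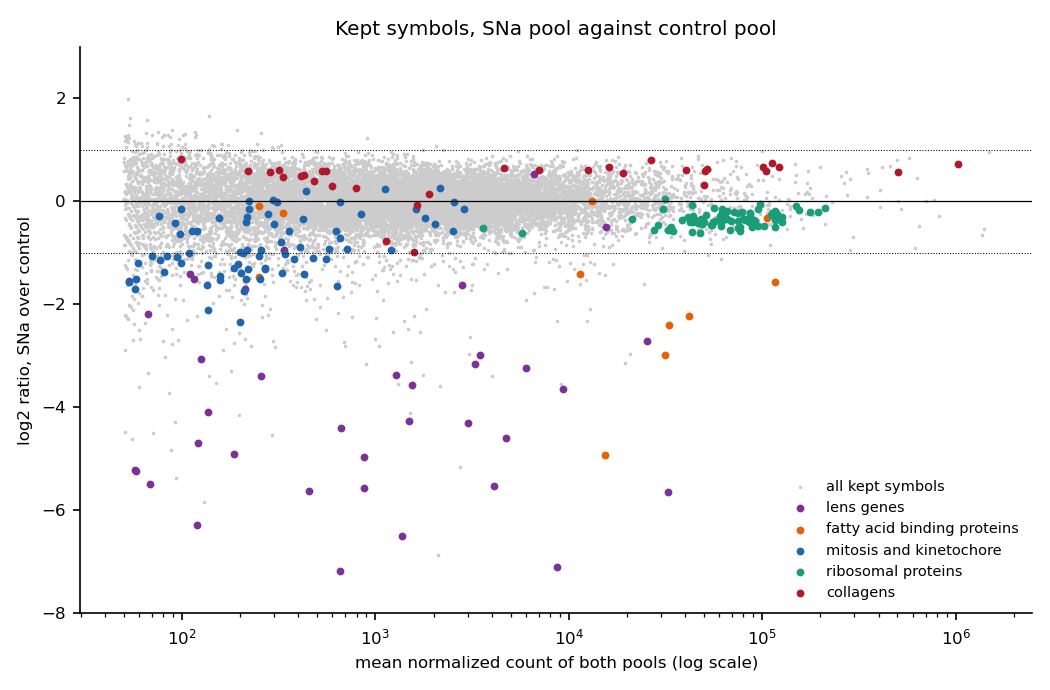
Each point is 1 kept symbol, placed by its mean normalized count over both pools (x axis, log scale) and its log2 ratio of SNa over control (y axis), with 5 families in colour, dotted lines at 2-fold and a y axis that ends at -8 and 3, which leaves out 4 symbols with 0 reads in a pool. Lens genes reach -7.17, fatty acid binding proteins reach -4.93, 29 of 32 collagens lie above 0, and ribosomal proteins form a tight cloud below 0 at high expression.

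Crystallins and other lens proteins had the lowest ratios of all. Of the 15 lowest symbols that were not clone or locus names, 13 belonged to the lens genes, and the others were *ggctb* and *fabp7a*. Most of the 15 had fewer than 50 normalized counts in the SNa pool and passed the minimum mean only through the control pool. *bfsp2*, a filament protein of lens fibers, had 9.03 normalized counts in the SNa pool and 1302 in the control pool, a log2 ratio of -7.17 (interval -9.45 to -5.62). The beta crystallin *crybb1* had 126 normalized counts in the SNa pool and 17263 in the control pool (-7.09), and the gamma crystallin *crygm2d12*, the most abundant lens gene, had 1287 normalized counts in the SNa pool and 64103 in the control pool (-5.64). *lenep* and *ggctb*, an enzyme of the glutathione cycle, had 0 reads in the SNa pool and 390 and 280 reads in the control pool. Set against the floor, they were 57.4-fold and 41.2-fold lower (log2 ratios -5.84 and -5.37). Their counting intervals reached up to log2 ratios of -4.53 and -4.05, so these fold values are not lower limits. Over 37 kept lens genes the median was -4.09, 34 were at least 2-fold lower (against 3.54% of all symbols), and the family took 0.0375% of the SNa pool and 0.241% of the control pool. *tdrd7b*, an RNA granule protein that many cells use, was the single lens-list gene above 0, with 7804 normalized counts in the SNa pool and 5425 in the control pool (0.52). In the SKF cultures, set against the same controls, the lens median was -4.01, so a property of the control pool and an effect shared by both treatments cannot be told apart.

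Scarce and varied genes led the higher side. *hr44h* had 98 reads in the SNa pool and 0 in the control pool and was 74.0-fold higher against the floor (log2 ratio 6.21). Its counting interval began at a log2 ratio of 4.86, so this fold value is not a lower limit. *fscn1b*, the actin-bundling protein fascin, had 211 normalized counts in the SNa pool and 66.5 in the control pool, a log2 ratio of 1.66 (interval 1.12 to 2.22). The calcium-dependent kinase *pnck* had 81.3 normalized counts in the SNa pool and 26.6 in the control pool (1.61). *bcas3* had 99.3 normalized counts in the SNa pool and 33.2 in the control pool (1.58). *nrxn3a*, a presynaptic adhesion protein, had 279.9 normalized counts in the SNa pool and 106 in the control pool (1.40). *pon3*, a lactone hydrolase, had 167 normalized counts in the SNa pool and 65.8 in the control pool (1.34). The gap junction protein *cx34.4* had 367 normalized counts in the SNa pool and 146 in the control pool (1.33). The ratio of *nrxn3a* was 0.38 when transcripts with assembly numbers of 100000 and above were left out. These genes are of no common kind. *socs5a*, a brake on cytokine receptors, had 75.2 normalized counts in the SNa pool and 30.6 in the control pool (1.30). The mitochondrial ribosomal protein *mrpl3* had 99.3 normalized counts in the SNa pool and 40.5 in the control pool (1.29). The elongase *elovl8a*, which lengthens fatty acids, had 164 normalized counts in the SNa pool and 68.4 in the control pool (1.26). *mboat2a*, *itih5*, *slc7a4*, *epb41b* and *srst* completed the 15, with log2 ratios from 1.27 to 1.30. Of the 15, *hr44h*, *pnck*, *bcas3*, *socs5a*, *mboat2a*, *mrpl3*, *itih5* and *srst* had fewer than 50 normalized counts in the control pool. They passed the minimum mean only through the SNa pool, in which they were high. Among genes with more reads, the metalloreductase *steap4*, which frees iron and copper for uptake, had 1267 normalized counts in the SNa pool and 536 in the control pool (1.24, interval 1.04 to 1.44).

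By the size of the difference in normalized counts, matrix and contractile proteins stood highest above the control. Fibronectin *fn1b*, which links cells to the matrix, had 1961127 normalized counts in the SNa pool and 1006346 in the control pool (0.96). Its copy *fn1a* had 631921 normalized counts in the SNa pool and 360791 in the control pool (0.81). The type I collagen chain *col1a1a* had 1282151 normalized counts in the SNa pool and 778739 in the control pool (0.72), and *col1a2* had 599260.5 normalized counts in the SNa pool and 404786 in the control pool (0.57). *sparc*, a collagen-binding secreted protein, had 565519.7 normalized counts in the SNa pool and 352477 in the control pool (0.68). Periostin *postnb* had 323908 normalized counts in the SNa pool and 218798 in the control pool (0.57). Smooth muscle actin *acta2* had 512573 normalized counts in the SNa pool and 320790.1 in the control pool (0.68). Filamin *flna* had 727657 normalized counts in the SNa pool and 528270.0 in the control pool (0.46). Tropomyosin *tpm4a* had 420347 normalized counts in the SNa pool and 284792 in the control pool (0.56). *bhik* was the tenth, with 243252 in the SNa pool and 153154 in the control pool (0.67). None of the 10 reached a log2 ratio of 1.

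The largest differences below the control were spread over mitochondrial, cytoskeletal and carrier proteins. Transcripts of the mitochondrial genome stood first, with 1061475 normalized counts in the SNa pool and 1673407 in the control pool for *cytb* (-0.66), 1145395 in the SNa pool and 1664592 in the control pool for *cox1* (-0.54) and 432116 in the SNa pool and 806303 in the control pool for *cox2* (-0.90). *purb*, a DNA- and RNA-binding repressor of smooth muscle genes, had 195184 normalized counts in the SNa pool and 372879 in the control pool (-0.93). The intermediate filament vimentin (*vim*) had 225285 normalized counts in the SNa pool and 363301 in the control pool (-0.69). Keratin *krt18* had 179748 normalized counts in the SNa pool and 244629 in the control pool (-0.44). The actin-sequestering peptide *tmsb4x* had 741519 normalized counts in the SNa pool and 906216 in the control pool (-0.29). The BMP target *id1* had 79019 normalized counts in the SNa pool and 141792 in the control pool (-0.84). The fatty acid carrier *fabp11a*, with 58498 normalized counts in the SNa pool and 173131 in the control pool (-1.57), and *crygm2d12* were the only symbols of the 10 beyond 2-fold.

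Of 73 families with at least 5 kept members, 2 had a median of 0.5 or more, 5 had a median of -0.5 or less, and 52 had a median within 0.25 of 0. Collagens (0.59) and genes typical of fibroblasts and mural cells (0.52) were the higher families. The lower families were lens genes, fatty acid and retinoid binding proteins (-1.47), mitosis genes (-0.95), glial and progenitor markers (-0.52) and SOX factors (-0.50). The SOX median (-0.5005) lay at the cutoff. With values taken as a share of the pooled reads, 4 families had a median of -0.5 or less. Families overlap, with 112 symbols in more than 1 of them. *col1a1a* was the most abundant member of both higher families. *fabp7a* was the lowest member of both the binding proteins and the glial and progenitor markers. Against the same control cultures, the medians in the SKF cultures were 0.71 for collagens, 0.55 for fibroblast and mural cell genes, -0.86 for mitosis genes, -0.40 for glial and progenitor markers and -0.16 for SOX factors. As for the lens genes, a property of the control pool and an effect shared by both treatments cannot be told apart.

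**Figure D2:**
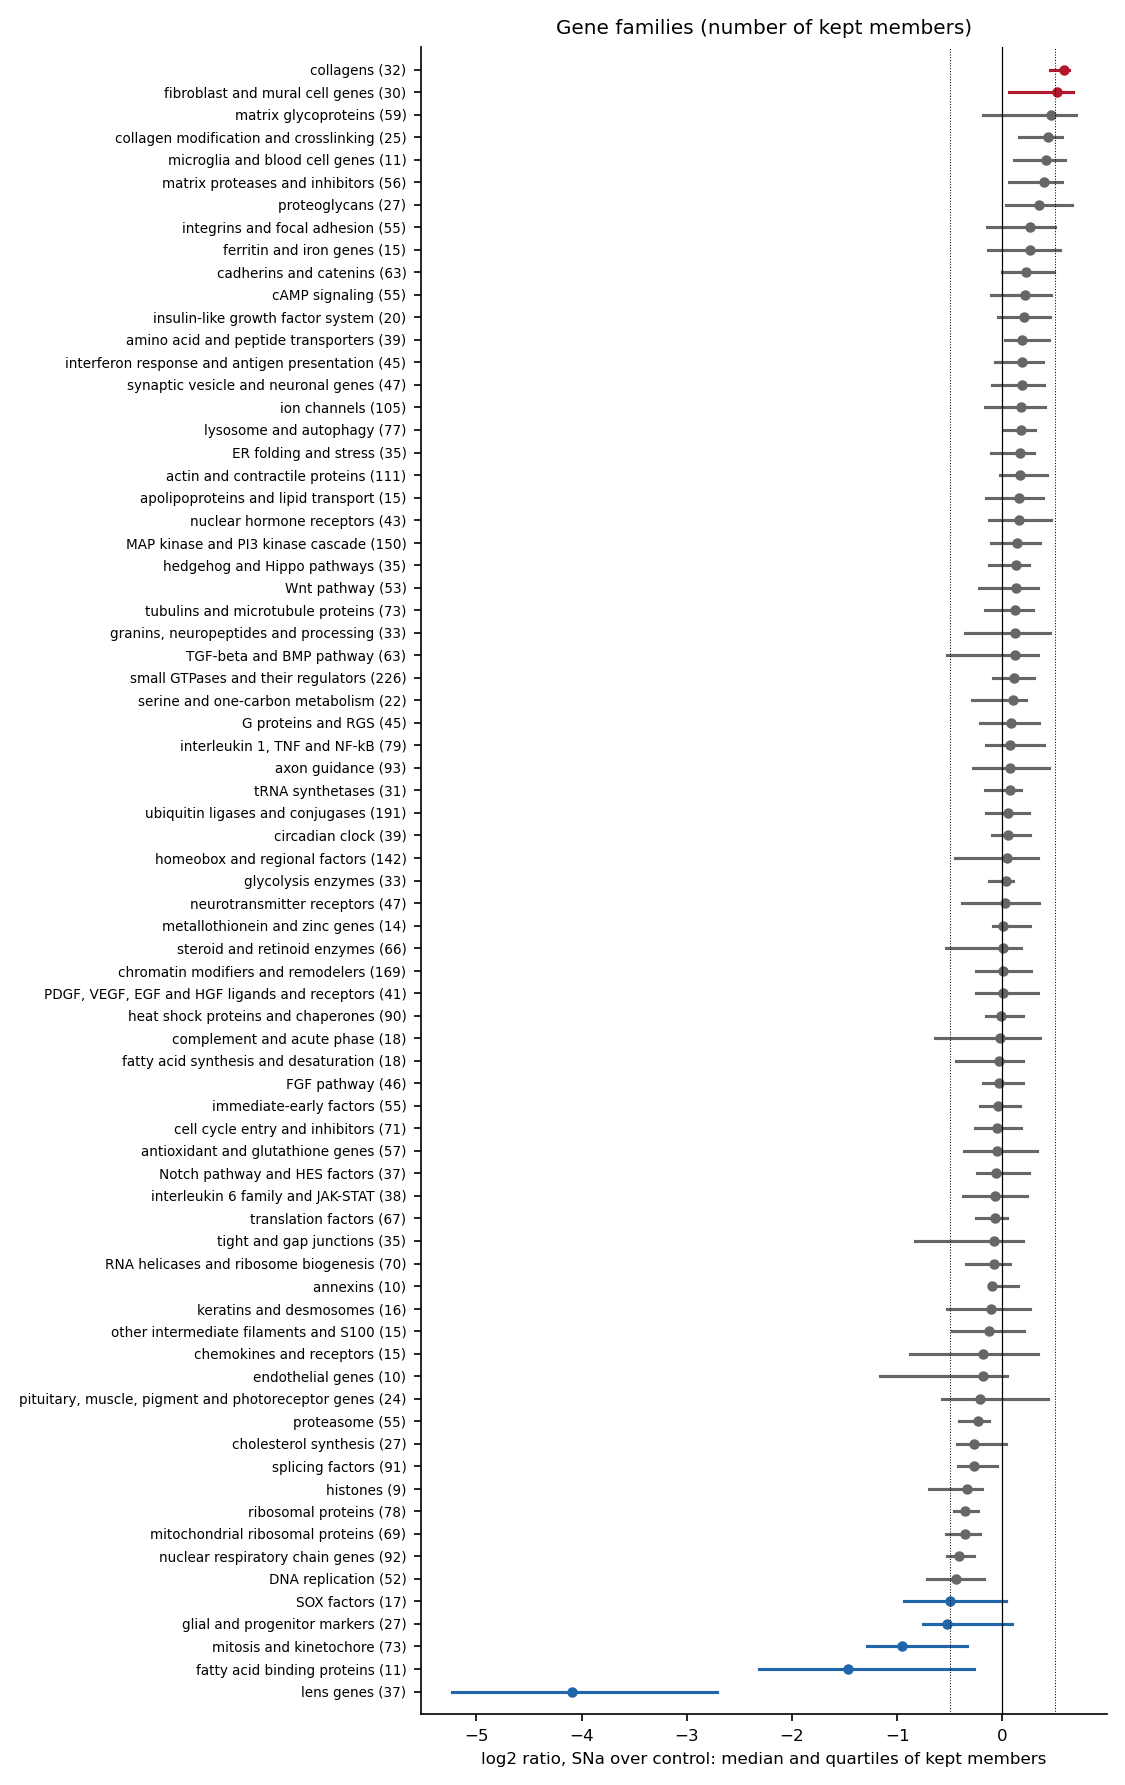
Median (dot) and quartiles (line) of the log2 ratio of SNa over control for the kept members of each family, with the number of kept members in brackets and dotted lines at 0.5 and -0.5; families at or beyond these lines are in red and blue. Collagens stand at the top with a median of 0.59 and lens genes at the bottom with -4.09, while 52 of 73 families lie within 0.25 of 0.

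Intracellular lipid carriers were among the abundant genes with the lowest ratios. Members of this family ferry fatty acids (FABP), retinol (RBP) and retinoic acid (CRABP) through the cytoplasm, and *fabp7*, brain lipid-binding protein, is a classical radial glial marker. *fabp7a* had 975 normalized counts in the SNa pool and 29794 in the control pool, a log2 ratio of -4.93 (interval -5.10 to -4.78), and the 2 transcripts summed in it had ratios of -5.04 and -4.77. Its copy *fabp7b* had 14693 normalized counts in the SNa pool and 68649 in the control pool (-2.22), so the copies lay 2.71 apart on the log2 scale. *fabp11a*, a carrier known from fish, was the most abundant of the family and lay at -1.57, and the muscle-type *fabp3* had 6269 normalized counts in the SNa pool and 16568 in the control pool (-1.40). All 4 kept fatty acid carriers were thus at least 2-fold lower (against 3.54% of all symbols). Together they had 80435 normalized counts in the SNa pool and 288141 in the control pool.

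Retinoid carriers were split. *crabp1a* had 7068 normalized counts in the SNa pool and 55896 in the control pool (-2.98, interval -3.04 to -2.92). The retinol carrier *rbp5* had 10592 normalized counts in the SNa pool and 55705 in the control pool (-2.39). In contrast, *crabp2b*, with 93876 normalized counts in the SNa pool and 117988 in the control pool (-0.33), and *crabp2a*, with 13278 in the SNa pool and 13172 in the control pool (0.012), lay close to 0, and the intervals of *rbp7a* and *rbp7b* included 0. Of 11 carriers in all, 1 had a ratio above 0 (against 51.1% of all symbols) and 7 were at least 2-fold lower (against 3.54%). The family median against the same controls was -1.30 in the SKF cultures.

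Enzymes that make and clear retinoic acid, the ligand behind the CRABP proteins, also differed among themselves. The synthesizing dehydrogenases *aldh1a2*, with 7545 normalized counts in the SNa pool and 12382 in the control pool (-0.71), and *aldh1a3*, with 27.1 in the SNa pool and 97.0 in the control pool (-1.84), were lower. Of the degrading enzymes, *cyp26c1* had 501 normalized counts in the SNa pool and 2897 in the control pool (-2.53) and *cyp26b1* had 293 in the SNa pool and 156 in the control pool (0.91), ratios of opposite sign. *rdh10a*, which oxidizes retinol in the step before, was the most abundant enzyme of the list and had 36516 normalized counts in the SNa pool and 33844 in the control pool (0.11).

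Steroid enzymes showed no common direction, with a median of 0.010 over 66 kept steroid and retinoid enzymes. Of these, 8 were at least 2-fold lower (against 3.54% of all symbols). The aromatase symbol *cyp19a1*, the enzyme that makes estrogens and a marker of fish radial glia, was scarce, with 12.0 normalized counts in the SNa pool and 159 in the control pool (log2 ratio -3.73, interval -5.63 to -2.33). That symbol does not say whether the brain or the ovarian form was read. The sulfotransferase *sult2st3* had 57.2 normalized counts in the SNa pool and 365 in the control pool (-2.67). *hsd17b3*, which makes testosterone, had 184 normalized counts in the SNa pool and 694 in the control pool (-1.92). *hsd11b2*, which inactivates cortisol, had 235 normalized counts in the SNa pool and 645 in the control pool (-1.46). *cyp1a*, an enzyme of xenobiotic breakdown, had 5023 normalized counts in the SNa pool and 14625 in the control pool (-1.54). The most abundant cytochrome P450 of the list, *cyp2aa7*, was higher, with 19778 normalized counts in the SNa pool and 11286 in the control pool (0.81), and so was the oxysterol hydroxylase *cyp7b1* (2521 in the SNa pool and 1602 in the control pool, 0.65).

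Markers of radial glia were lower in the SNa pool for 8 of 9 kept symbols, with 416624 normalized counts in the SNa pool and 706268 in the control pool over the 10 of 12 listed markers that were found. Glial fibrillary acidic protein *gfap* had 110501 normalized counts in the SNa pool and 159402 in the control pool (-0.53). The calcium-binding *s100b* had 1261 normalized counts in the SNa pool and 1881 in the control pool (-0.58). The glutamine synthetase *glulb*, which turns glutamate into glutamine, had 20969 normalized counts in the SNa pool and 32295 in the control pool (-0.62). *sox2*, a stem cell factor, had 18995 normalized counts in the SNa pool and 32929 in the control pool (-0.79). Nestin (*nes*), a filament protein of neural progenitors, was the one exception, with 22235 normalized counts in the SNa pool and 15748 in the control pool (0.50, interval 0.46 to 0.54). The kept markers other than the *fabp7* copies thus differed by less than 2-fold, and *cyp19a1b* and *slc1a3a* of the list were not found as symbols.

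Larger differences were found among glial genes with more specialized tasks. *slc1a3b*, the glutamate transporter of astroglia, had 4024 normalized counts in the SNa pool and 35169 in the control pool, a log2 ratio of -3.13 (interval -3.21 to -3.05), and each of its 3 transcripts lay between -3.24 and -3.05. The other 3 kept glutamate and glycine carriers of glia were above 0, and the median of these 4 genes was 0.45. The glial adhesion molecule *hepacama* had 1544 normalized counts in the SNa pool and 4771 in the control pool (-1.63). The receptor phosphatase gene *ptprz1a* had 27.1 in the SNa pool and 93.0 in the control pool (-1.78). Its copy *ptprz1b* had 274 normalized counts in the SNa pool and 195 in the control pool (0.49). On the higher side, *mfge8b*, a secreted bridge protein for the uptake of dead cells, had 14615 normalized counts in the SNa pool and 9476 in the control pool (0.63). Of 27 kept glial and progenitor genes, 8 had a ratio above 0 (against 51.1% of all symbols) and 5 were at least 2-fold lower (against 3.54%).

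**Figure D3:**
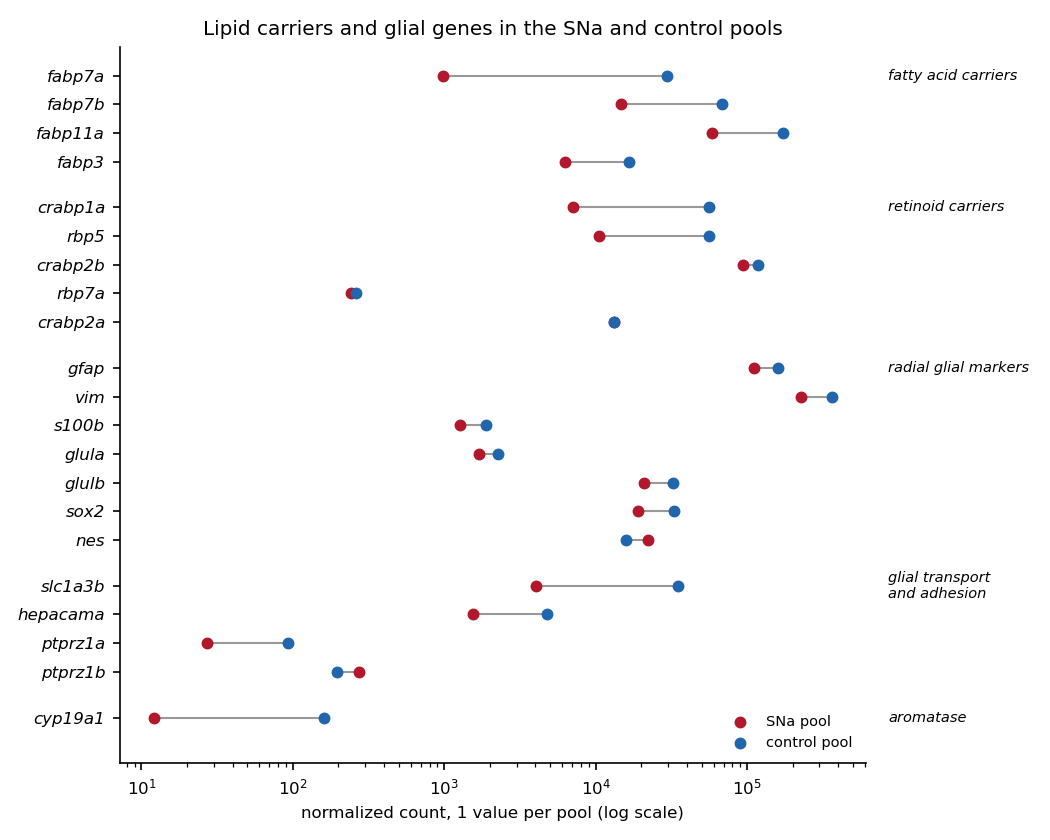
Normalized counts of lipid carriers and glial genes in the SNa pool (red) and the control pool (blue), 1 value per pool, on a log scale. The gap is widest for *fabp7a* (975 in the SNa pool, 29794 in the control pool), followed by *cyp19a1* and *slc1a3b* (4024 in the SNa pool, 35169 in the control pool). *nes* and *ptprz1b* run the other way, and *crabp2a* is nearly equal in both pools (13278 in the SNa pool, 13172 in the control pool).

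Several transcription factors of neural progenitors were lower in the SNa pool. SOX factors bind DNA to hold cells in a progenitor or committed state. *sox1b*, of the SOXB1 group that keeps progenitors undifferentiated, had 316 normalized counts in the SNa pool and 2744 in the control pool (-3.12, interval -3.41 to -2.83). *sox21a*, of the SOXB2 group, had 42.1 normalized counts in the SNa pool and 198 in the control pool (-2.23). *sox18*, a factor of blood vessel cells, had 78.2 normalized counts in the SNa pool and 259 in the control pool (-1.73). *sox4a* of the SOXC group, which acts in cells leaving the progenitor state, had 5207 normalized counts in the SNa pool and 11326 in the control pool (-1.12). While its copy *sox4b*, the more abundant one, had 19132 normalized counts in the SNa pool and 23732 in the control pool (-0.31). All 4 SOXB and all 4 SOXC factors kept were below 0. Their medians were -1.54 and -0.59 in the SNa pool. Against the same control cultures, the SKF medians were -1.30 for SOXB and -0.24 for SOXC factors, with *sox1b* at -2.82. *sox8a*, with 78.2 normalized counts in the SNa pool and 46.5 in the control pool (0.75), was the highest of the 17 kept SOX factors, and its interval of -0.040 to 1.52 included 0.

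Homeobox and other regional factors had a median of 0.041, yet 19 of 142 were at least 2-fold lower and 1 was higher, against 3.54% and 0.499% of all symbols. *six3b*, a factor of the forebrain and eye, was the most abundant, with 34129 normalized counts in the SNa pool and 70208 in the control pool (-1.04). *zic2b*, a zinc finger factor of the dorsal neural tube, had 5651 normalized counts in the SNa pool and 17263 in the control pool (-1.61), and all 7 ZIC factors were below 0. *dlx2a*, a telencephalic factor of inhibitory neurons, had 199 normalized counts in the SNa pool and 626 in the control pool (-1.66). *foxj1a*, the master factor of motile cilia, had 114 normalized counts in the SNa pool and 286 in the control pool (-1.32). *foxe3*, a lens factor, had 24.1 normalized counts in the SNa pool and 109 in the control pool (-2.18). *twist2*, a mesenchymal factor, had 81.3 in the SNa pool and 268 in the control pool (-1.72). HOX genes, which mark more posterior levels of the body, went the other way at low expression, with 13 of 16 above 0 and a median of 0.38. The highest, *hoxb6a*, had 78.2 normalized counts in the SNa pool and 37.2 in the control pool (1.07).

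Notch signaling, which keeps radial glia quiet, stood near 0 as a family (-0.060 over 37 symbols). Delta ligands, which neighbouring cells present to the receptor, were its lowest members. *dla* had 87.3 normalized counts in the SNa pool and 225 in the control pool (-1.37). *dld* had 298 normalized counts in the SNa pool and 592 in the control pool (-0.99). The receptor *notch2* was higher, with 6733 normalized counts in the SNa pool and 4175 in the control pool (0.69), and so was *notch3*, with 3878 normalized counts in the SNa pool and 2617 in the control pool (0.57). Of the target genes, *her6* and *her9*, the most abundant, had ratios of -0.093 and 0.076, whereas *her4.2*, a target active in radial glia, had 39745 normalized counts in the SNa pool and 57119 in the control pool (-0.52). The proneural factor *neurog3* was highest in the family (268 in the SNa pool and 159 in the control pool, 0.75).

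TGF-beta and BMP signaling genes differed by role, in groups chosen after their values were seen. Ligands of this family bind paired receptors, which phosphorylate SMAD proteins; secreted antagonists, inhibitory SMADs and the decoy receptor BAMBI restrain the pathway, and ID genes are its targets in progenitors. As a whole the 63 kept genes had a median of 0.12, with 11 at least 2-fold lower and 0 higher (against 3.54% and 0.499% of all symbols). The study listed *smad6b*, an inhibitory SMAD of the BMP branch, by name as lower with SNa. It listed *fgf4*, *nab1a*, *baiap2b*, *grapa*, *pde8a*, *trnt1* and *hspb11* along with it. Here *smad6b* had 853 normalized counts in the SNa pool and 5289.7 in the control pool, a log2 ratio of -2.63 (interval -2.81 to -2.46), and its 2 transcripts lay at -2.91 and -1.97. *smad6a* had 1017 in the SNa pool and 1548 in the control pool (-0.61). *smad7*, which blocks both branches, had 20703 normalized counts in the SNa pool and 32017 in the control pool (-0.63). The decoy receptor *bambib* had 102 normalized counts in the SNa pool and 415 in the control pool (-2.02). All 10 inhibitory SMADs, BAMBI and ID genes were below 0, with 142075 normalized counts in the SNa pool and 237839 in the control pool.

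Secreted antagonists had a median of -1.14. At least 2-fold lower were 4 of 6 kept noggins, follistatins and related inhibitors (against 3.54% of all symbols). Above 0 was 1 of the 6, at 0.35 (against 51.1% of all symbols). Summed, the 6 had 8853 normalized counts in the SNa pool and 12884 in the control pool (-0.54), closer to 0 than their median. The sum of the inhibitory SMADs, BAMBI and ID genes lay at -0.74. These role groups were chosen after their values were seen, so the counts are description only. *nog2*, a noggin that traps BMPs outside the cell, had 310.0 normalized counts in the SNa pool and 3222 in the control pool (-3.38, interval -3.68 to -3.09). *nog3* had 9.03 normalized counts in the SNa pool and 176 in the control pool (-4.29). The activin trap *fstb* had 653 normalized counts in the SNa pool and 1576 in the control pool (-1.27). Follistatin-like *fstl1b*, the most abundant gene of the pathway, was not counted among these inhibitors and had 297697 normalized counts in the SNa pool and 232854 in the control pool (0.35), more reads than all of them together.

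Of 14 kept ligands, 11 were above 0 and 3 at least 2-fold lower (against 51.1% and 3.54% of all symbols), with a median of 0.35. *tgfb3* had 37339 normalized counts in the SNa pool and 24192 in the control pool (0.63), and *bmp6* and *bmp7b*, the highest genes of the family, had log2 ratios of 0.83 and 0.84. *bmp7a* had 382 normalized counts in the SNa pool and 1127 in the control pool (-1.56). *bmp2b* had 36.1 normalized counts in the SNa pool and 116 in the control pool (-1.68). The activin subunit *inhbab* had 388 normalized counts in the SNa pool and 1047 in the control pool (-1.43). Most ligand reads came from *inhbaa*, with 93223 normalized counts in the SNa pool and 84180.3 in the control pool (0.15).

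Receptors and the SMADs that carry the signal differed little. Of 16 receptors, 13 were above 0 with a median of 0.25, and *bmpr1ba* alone was at least 2-fold lower (153 in the SNa pool and 312 in the control pool, -1.02). *smad9*, an activator of BMP targets, was the one carrier SMAD beyond 2-fold, with 1047 normalized counts in the SNa pool and 3539 in the control pool (-1.76), whereas *smad1*, *smad2* and *smad5* lay between -0.23 and 0.19. Against the same controls, the SKF cultures had log2 ratios of -1.33 for *smad6b*, -0.72 for *smad9*, -0.11 for *smad7* and -2.95 for *nog2*. The SNa and SKF ratios were not tested against each other here.

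**Figure D4:**
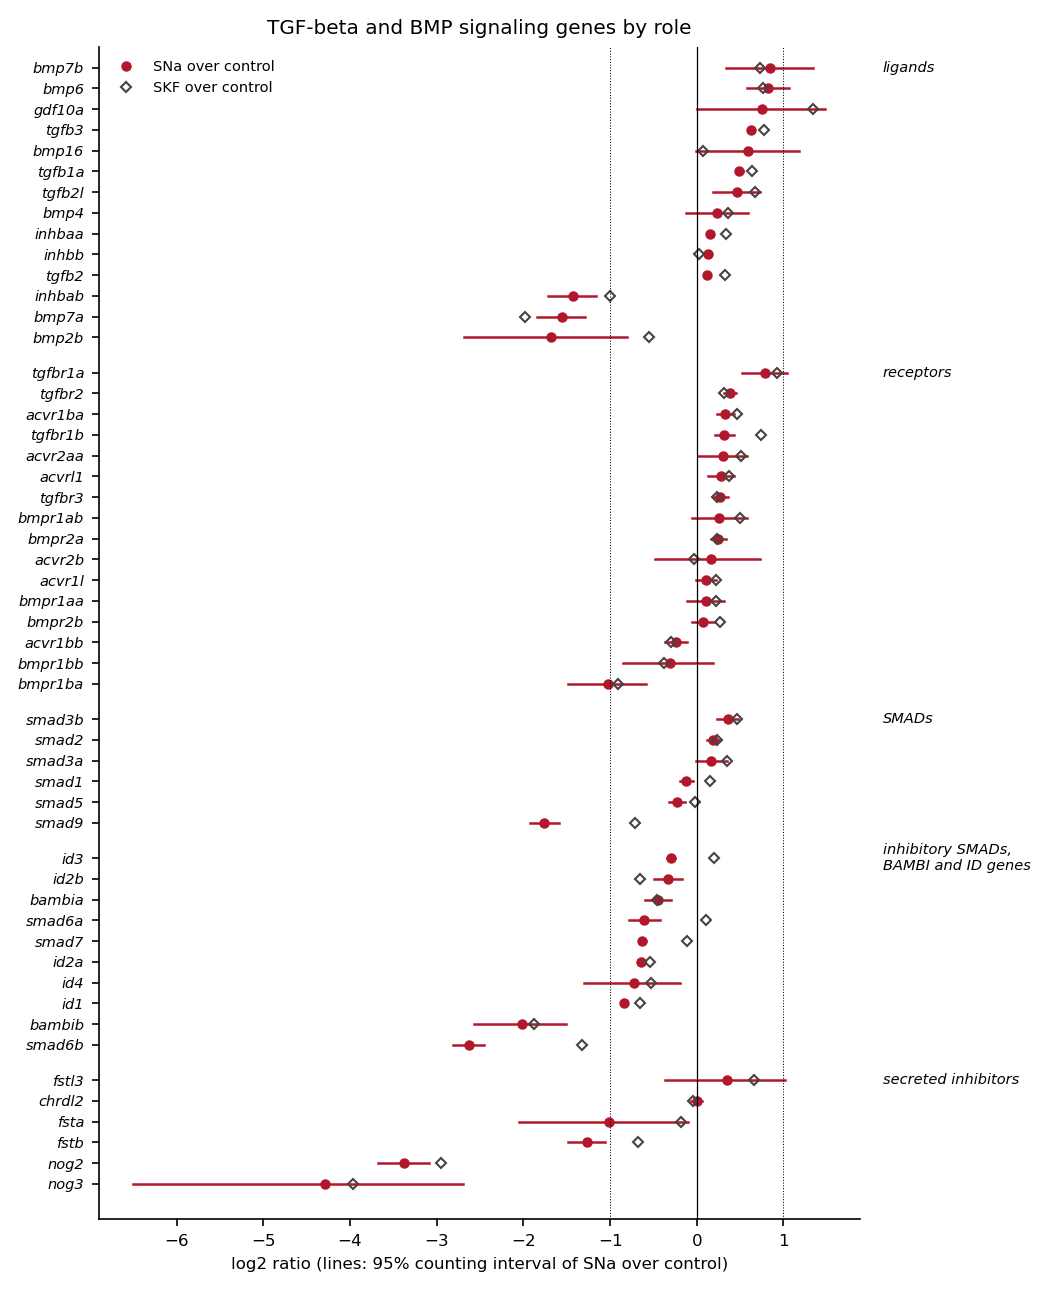
Log2 ratios of SNa over control (red dots, with 95% counting intervals as lines, cut at -6.5) and of SKF over the same controls (open diamonds) for genes of TGF-beta and BMP signaling, grouped by role, with dotted lines at 2-fold. The *nog2* and *nog3* noggins and smad6b lie farthest to the left, every inhibitory SMAD, BAMBI and ID gene has a red dot below 0, and 13 of 16 receptors lie above 0.

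Wnt and FGF genes, which pattern the brain and drive progenitor division, were near 0 as families (0.13 over 53 and -0.035 over 46 symbols). Among the Wnt ligands, *wnt7bb*, with 39.1 normalized counts in the SNa pool and 288 in the control pool (-2.88), and *wnt7aa*, with 262 in the SNa pool and 1245 in the control pool (-2.25), were low, and both are ligands of the developing forebrain. The receptor *fzd8a* had 403 normalized counts in the SNa pool and 1243 in the control pool (-1.62). While *sfrp1a*, a secreted Wnt trap, had 334 normalized counts in the SNa pool and 155 in the control pool (1.11). The shared effector *ctnnb1* had 139407 normalized counts in the SNa pool and 137057 in the control pool (0.025). In the FGF family *fgf4*, a growth factor of early embryos and limb buds, had 579 normalized counts in the SNa pool and 993 in the control pool (-0.78, with 0.40 in the SKF cultures). *fgf1* had 147 normalized counts in the SNa pool and 305 in the control pool (-1.05). The highest of the family was *fgf18a*, with 99.3 normalized counts in the SNa pool and 52.5 in the control pool (0.92). Feedback inhibitors that read out FGF activity had ratios of 0.28 (*spry4*), -0.18 (*dusp6*) and -0.62 (*dusp5*). The abundant *dusp2* had 29678 normalized counts in the SNa pool and 19862 in the control pool (0.58).

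Other growth factors made by glia included large differences. *pdgfaa*, the ligand that drives oligodendrocyte precursors, had 3736 normalized counts in the SNa pool and 11747 in the control pool (-1.65). The heparin-binding factor *mdkb* had 8380.3 normalized counts in the SNa pool and 22516 in the control pool (-1.43). Its relative *ptn* had 36.1 normalized counts in the SNa pool and 128 in the control pool (-1.82). The more abundant copy *mdka* had 152902 normalized counts in the SNa pool and 182193 in the control pool (-0.25). *egf* was higher (4587 in the SNa pool and 2752 in the control pool, 0.74), and so was its receptor *egfra* (15633 in the SNa pool and 9935 in the control pool, 0.65). The insulin-like growth factor system had a median of 0.20, with *igf2b* at 8440.5 in the SNa pool and 5534 in the control pool (0.61), its clearance receptor *igf2r*, the highest, at 0.66 and *igfbp3*, the lowest, at -0.51.

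Collagens were higher nearly throughout. They form the fibers and sheets of connective tissue and basement membranes. Of 32 kept chains, 29 were above 0 and 22 above 0.5 (against 10.2% of all symbols), yet 0 reached 2-fold. The family sum came to 2768114 normalized counts in the SNa pool and 1759211 in the control pool. The basement membrane chain *col4a2* had 141179 normalized counts in the SNa pool and 83603 in the control pool (0.76). The fibril-associated *col12a1b* had 124393 normalized counts in the SNa pool and 78451 in the control pool (0.67). *col6a3* of the beaded microfibrils had 33697 normalized counts in the SNa pool and 19343 in the control pool (0.80). All 6 basement membrane chains and all 10 chains of networks and microfibrils were above 0. Of 7 chains of cartilage type, 4 were above 0 with a median of 0.49, among them the highest collagen, *col9a2* (0.82), and the 3 collagens below 0 were of this type as well. *col2a1a* had 1073 normalized counts in the SNa pool and 2105 in the control pool (-0.97). *col9a3* had 837 normalized counts in the SNa pool and 1421 in the control pool (-0.76). *col2a1b* had 1606 normalized counts in the SNa pool and 1679 in the control pool (-0.064).

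Proteins that modify, trim and cross-link collagen were higher too, with a median of 0.44 and 22 of 25 above 0. The lysyl hydroxylase *plod2*, which prepares collagen for cross-links, had 53058 normalized counts in the SNa pool and 33453 in the control pool (0.67). The collagen chaperone *serpinh1b* had 39248 normalized counts in the SNa pool and 26215 in the control pool (0.58). The procollagen peptidase enhancer *pcolcea* had 206727 normalized counts in the SNa pool and 137921 in the control pool (0.58), and the lysyl oxidases *loxl1* and *loxl5b* were both at 0.57. A transglutaminase, *tgm8*, was the one gene beyond 2-fold and was lower (114 in the SNa pool and 243 in the control pool, -1.09).

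Matrix glycoproteins had a median of 0.46, with 40 of 59 above 0. Besides the fibronectins, *thbs4b* had 117194 normalized counts in the SNa pool and 71272 in the control pool (0.72). The laminin chain *lama4* had 60669 normalized counts in the SNa pool and 33020.2 in the control pool (0.88). The fibulin *fbln1* had 2349 normalized counts in the SNa pool and 1174 in the control pool (1.00). *emilin2a*, of elastic fibers, had 397 normalized counts in the SNa pool and 197 in the control pool (1.01). The thrombospondin pair *thbs3a* and *thbs3b* formed the low end. *thbs3a* had 699.7 normalized counts in the SNa pool and 7349 in the control pool (-3.39). *thbs3b* had 206 normalized counts in the SNa pool and 2399.6 in the control pool (-3.54). Their transcripts did not agree, since those of *thbs3a* ran from -4.28 to 1.59. *smoc1*, a calcium-binding protein that restrains BMP signals, had 9831 normalized counts in the SNa pool and 17319.8 in the control pool (-0.82). *smoc2* had 84.3 normalized counts in the SNa pool and 335 in the control pool (-1.99).

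Proteoglycans, proteases and adhesion genes leaned the same way with smaller ratios. Proteoglycans had a median of 0.35, with *acana*, cartilage aggrecan, highest (108 in the SNa pool and 51.2 in the control pool, 1.08), followed among abundant members by lumican *lum* (40338 in the SNa pool and 23375 in the control pool, 0.79) and decorin *dcn* (85524 in the SNa pool and 61879.7 in the control pool, 0.47), which bind collagen fibers. Matrix proteases and inhibitors had a median of 0.40, with 44 of 56 above 0. The gelatinase *mmp2* had 96056 normalized counts in the SNa pool and 60030.3 in the control pool (0.68). Its inhibitor *timp2b* had 60218 normalized counts in the SNa pool and 37029 in the control pool (0.70). *adamts8a* was the low member (169 in the SNa pool and 416 in the control pool, -1.30). Integrins and focal adhesion genes had a median of 0.26, from *parvb* (-1.57) to *itga11a*, a collagen receptor (105 in the SNa pool and 55.8 in the control pool, 0.92). Both copies of *itga3*, a laminin receptor, lay at 0.90 (*itga3a*) and -0.73 (*itga3b*).

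The actin and contractile family had a median of 0.17, with 78 of 111 above 0 and 0 at least 2-fold lower (against 51.1% and 3.54% of all symbols). Smooth muscle myosin *myh11a* had 11229 normalized counts in the SNa pool and 6068 in the control pool (0.89). Its kinase *mylka* had 23132 normalized counts in the SNa pool and 12697 in the control pool (0.87). Cytoplasmic actin *actb2* had 702937 normalized counts in the SNa pool and 702092 in the control pool (0.0017). Transgelin *tagln* had 392187 normalized counts in the SNa pool and 422219 in the control pool (-0.11). Cadherins and catenins had a median of 0.22, from the neuronal catenin *ctnna2* (253 in the SNa pool and 777 in the control pool, -1.62) to the protocadherin *pcdh2g9* (72.2 in the SNa pool and 30.6 in the control pool, 1.24). *cdh2*, the adhesion protein of neural progenitors, had 77067 normalized counts in the SNa pool and 69594 in the control pool (0.15). *cdh11*, a mesenchymal cadherin, had 17341 normalized counts in the SNa pool and 10201 in the control pool (0.77). Junction genes had a median of -0.075, with 5 of 35 at least 2-fold lower (against 3.54% of all symbols), among them *cldn5a*, a claudin of tight brain barriers (2987 in the SNa pool and 10199 in the control pool, -1.77).

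**Figure D5:**
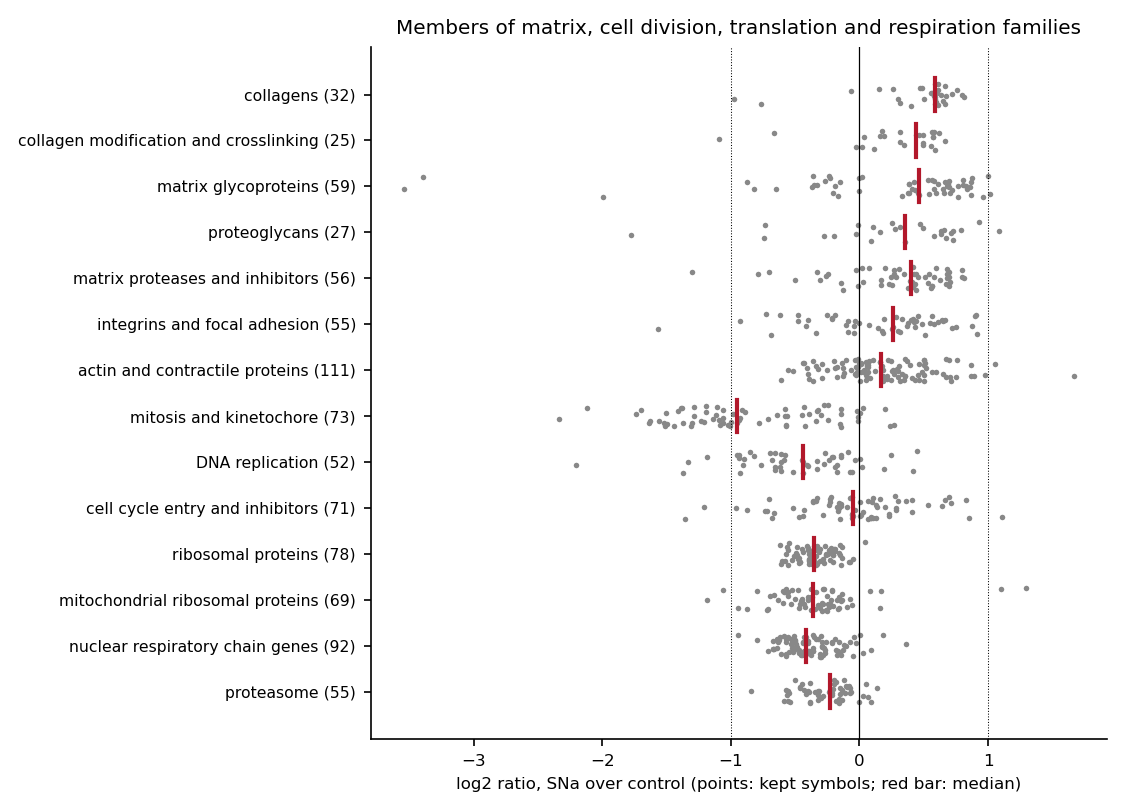
Log2 ratios of SNa over control for every kept member (grey points) of 14 families, with the family median as a red bar, the number of members in brackets, random vertical spread within a row and dotted lines at 2-fold. Collagens cluster at 0.59, mitosis genes at -0.95 with 34 of 73 beyond 2-fold, and ribosomal proteins, respiratory chain genes and the proteasome lie in narrow bands below 0.

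Genes of mitosis were lower in the SNa pool. Kinetochores, spindle motors and their kinases are made mainly as cells divide. Of 73 kept genes, 34 were at least 2-fold lower (against 3.54% of all symbols), 5 were above 0, and the median was -0.95. *cdk1*, the kinase that starts mitosis, had 308 normalized counts in the SNa pool and 959 in the control pool (-1.64, interval -1.96 to -1.34). *cdca8*, of the chromosomal passenger complex, had 66.2 normalized counts in the SNa pool and 334 in the control pool (-2.33). The kinetochore protein *spc25* had 51.2 normalized counts in the SNa pool and 222 in the control pool (-2.12). The checkpoint protein *mad2l1* had 96.3 normalized counts in the SNa pool and 322 in the control pool (-1.74). The most abundant members lay closer to 0, with -0.15 for *cdca4*, -0.013 for the cyclin *ccnb2* and -0.57 for *kpna2*. *cdc25b*, a phosphatase that activates CDK1, was highest (2370.1 in the SNa pool and 1966 in the control pool, 0.27).

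DNA replication genes were lower by less, with a median of -0.44 and 4 of 52 at least 2-fold lower (against 3.54% of all symbols). All 6 MCM helicase subunits were below 0, the most abundant being *mcm7* with 1773 normalized counts in the SNa pool and 2656 in the control pool (-0.58). The polymerase clamp *pcna* had 1601 normalized counts in the SNa pool and 2396 in the control pool (-0.58). Thymidine kinase *tk1*, which supplies nucleotides in S phase, had 99.3 normalized counts in the SNa pool and 459 in the control pool (-2.21). *uhrf1*, which copies DNA methylation, was the most abundant and the highest (4265 in the SNa pool and 3119 in the control pool, 0.45). Regulators of cell cycle entry did not share this, with a median of -0.049 over 71 symbols. The D cyclins *ccnd2a* and *ccnd2b* were higher (0.70 and 0.85), and *cdkn1bb*, a p27-type inhibitor of cell cycle kinases, was lower (2290.3 in the SNa pool and 5298 in the control pool, -1.21).

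Stathmins, which destabilize microtubules and are abundant in dividing and young neural cells, had all 4 kept members below 0. *stmn1b* had 2874 normalized counts in the SNa pool and 14436 in the control pool (-2.33). *stmn1a* had 200.1 normalized counts in the SNa pool and 832 in the control pool (-2.06). *stmn4l* had 21.1 normalized counts in the SNa pool and 374 in the control pool (-4.15). *stmn2a*, a stathmin of neurons, lay closer to 0, with 548 normalized counts in the SNa pool and 677 in the control pool (-0.31). The tubulin and microtubule family as a whole had a median of 0.12.

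Machinery for making proteins and energy was lower by a small amount in most members. Ribosomal proteins of the cytosol had a median of -0.36, quartiles of -0.46 and -0.24, and 77 of 78 below 0 (against 48.9% of all symbols). *rps27a*, the most abundant, had 201599 normalized counts in the SNa pool and 220973 in the control pool (-0.13), *rpl22l1* was lowest (-0.62), and *rpl4* was the one above 0 (0.044). Mitochondrial ribosomal proteins had a median of -0.36, with 64 of 69 below 0. They ran from -1.18 to 1.29, with 2 at least 2-fold lower and 2 at least 2-fold higher (against 3.54% and 0.499% of all symbols). Nuclear genes of the respiratory chain had a median of -0.41 and 87 of 92 below 0, among them *cox7b* of complex IV (5115 in the SNa pool and 8867 in the control pool, -0.79) and *ndufa4l* (28882 in the SNa pool and 45946 in the control pool, -0.67). For the 39 subunits of complex I, 38 were below 0. Proteasome genes had a median of -0.23 (50 of 55 below 0), with its assembly factor *pomp* lowest (5407 in the SNa pool and 9682 in the control pool, -0.84), and splicing factors had a median of -0.27 (71 of 91), with the small ribonucleoprotein *snrpe* lowest (-0.91). Translation factors (-0.071), glycolysis enzymes (0.033) and tRNA synthetases (0.070) lay near 0. Against the same control cultures, the SKF medians were -0.43 for cytosolic and -0.46 for mitochondrial ribosomal proteins. They were -0.49 for nuclear respiratory chain genes, -0.31 for the proteasome and -0.32 for splicing factors. Here too, a property of the control pool and an effect shared by both treatments cannot be told apart.

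Lipid and lysosome genes differed by family. Cholesterol synthesis had a median of -0.27, with *dhcr7*, its last step, at 1153 in the SNa pool and 2064 in the control pool (-0.84). Fatty acid synthesis and desaturation genes had a median of -0.029, with 8 of 18 above 0. Their lowest member, the desaturase *fads2*, which makes polyunsaturated fatty acids, had 10281 normalized counts in the SNa pool and 23776 in the control pool (-1.21). Lysosome and autophagy genes had a median of 0.17 and 58 of 77 above 0, with cathepsin *ctsc* at 32702 in the SNa pool and 18790.5 in the control pool (0.80). The cholesterol exporters *abca1a* and *abca1b* were higher (0.69 and 0.56), and apolipoprotein E, *apoeb*, had 61857 normalized counts in the SNa pool and 57667 in the control pool (0.10). Heme oxygenase *hmox1a*, an oxidative stress gene, had 8150.0 normalized counts in the SNa pool and 18919 in the control pool (-1.21, or -0.12 without the transcripts numbered 100000 and above), whereas *txnrd1* and *gclc*, enzymes of thiol defense, had 0.56 and 0.57.

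Inflammatory signals differed by branch. The interleukin 6 and JAK-STAT family had a median of -0.071, with 16 of 38 above 0 and 2 at least 2-fold lower (against 51.1% and 3.54% of all symbols). Of the interleukin 6 family, the secreted partner *crlf1a* had 38739.7 normalized counts in the SNa pool and 84186 in the control pool (-1.12). *il11b* had 21509.7 normalized counts in the SNa pool and 34716 in the control pool (-0.69). *il6* had 2105 normalized counts in the SNa pool and 3205 in the control pool (-0.61). Of the feedback inhibitors of cytokine signals, *socs3a* had 39310.1 normalized counts in the SNa pool and 69277 in the control pool (-0.82) and *socs1a* had 485 normalized counts in the SNa pool and 1094 in the control pool (-1.17). *socs5b* lay at 0.025, and *socs5a* was the highest gene of the family at 1.30. The common receptor *il6st* was higher (33652 in the SNa pool and 23178 in the control pool, 0.54). Chemokines, which attract leukocytes, and their receptors had a median of -0.18, with 6 of 15 above 0 and 3 at least 2-fold lower. Among them, *ccl25b* had 448 normalized counts in the SNa pool and 2507 in the control pool (-2.48). *ccl20b* had 27.1 normalized counts in the SNa pool and 152 in the control pool (-2.48). *il8l1* had 93.3 normalized counts in the SNa pool and 342 in the control pool (-1.87). In contrast, *cxcl18b*, the most abundant, had 39224 normalized counts in the SNa pool and 29051 in the control pool (0.43). The receptor *ackr4b* was highest, with 251 normalized counts in the SNa pool and 146 in the control pool (0.79). Of the acute phase genes, the pentraxin *crp1* had 620.0 normalized counts in the SNa pool and 1564 in the control pool (-1.34) and serum amyloid *saa* had 4472 in the SNa pool and 2549 in the control pool (0.81). Interferon and antigen presentation genes had a median of 0.19, with 15 of 17 MHC class I chains above 0, and the NF-kB family had a median of 0.075.

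Immediate-early genes, the first to respond to many stimuli, had a median of -0.043 after 24 h. *fosab* and *fosb*, both abundant, had ratios of -0.074 and 0.030, *jun* had 21066 normalized counts in the SNa pool and 39485 in the control pool (-0.91). *egr2b* had 1071 normalized counts in the SNa pool and 551 in the control pool (0.96). *nab1a*, a corepressor of the EGR factors, had 259 normalized counts in the SNa pool and 424 in the control pool (-0.71, interval -1.07 to -0.36). Clock genes had a median of 0.053, with *npas2* at 1634 in the SNa pool and 3519 in the control pool (-1.11, with -0.25 in the SKF cultures).

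Granins, the protein family of the SNa precursor, held 3 kept genes with a median of -0.35. *scg2b* had 57.2 normalized counts in the SNa pool and 73.1 in the control pool (-0.35, interval -1.19 to 0.42). *scg5* had 72.2 normalized counts in the SNa pool and 97.0 in the control pool (-0.43). *scg3*, which sorts granins into granules, had 1998 normalized counts in the SNa pool and 1967 in the control pool (0.023). *scg2a*, *chgb* and *vgf* were not found as symbols. Among other peptides and their partners, *grp*, gastrin-releasing peptide, had 18.1 normalized counts in the SNa pool and 146 in the control pool (-3.02). Adrenomedullin *adma* had 4132 normalized counts in the SNa pool and 9316 in the control pool (-1.17). *adcyap1a*, the precursor of PACAP, had 1863 normalized counts in the SNa pool and 2817 in the control pool (-0.60). *vipr2*, a receptor for VIP and PACAP, had 656 normalized counts in the SNa pool and 339 in the control pool (0.95). The carboxypeptidase *cpe*, which finishes peptide processing, had 2137 normalized counts in the SNa pool and 1424 in the control pool (0.59).

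Second messenger genes held a few strong differences. The adenylyl cyclase *adcy8*, activated by calcium, had 364 normalized counts in the SNa pool and 2116 in the control pool (-2.54, interval -2.82 to -2.27). The cAMP-degrading *pde8a* had 1141 normalized counts in the SNa pool and 1665 in the control pool (-0.55). *pde8b* had 2426 normalized counts in the SNa pool and 4351 in the control pool (-0.84). *rgs5b*, a G protein brake of mural cells, had 3587 normalized counts in the SNa pool and 11391 in the control pool (-1.67). *gpsm1a*, which binds G protein alpha subunits, had 295 normalized counts in the SNa pool and 1067 in the control pool (-1.86). The cAMP family median was 0.21, with 36 of 55 above 0 and 1 at least 2-fold lower (against 51.1% and 3.54% of all symbols). Its highest member was *pde4a* (0.71). G proteins and their regulators had a median of 0.079, with 27 of 45 above 0 and 2 at least 2-fold lower, and *gna13b* was highest (0.72). Ion channels had a median of 0.18, with *trpa1b*, a sensor of irritants, at 12.0 in the SNa pool and 121 in the control pool (-3.33) and the calcium channel *cacna1ba* at 348 in the SNa pool and 175 in the control pool (0.99). For neurotransmitter receptors the median was 0.024, with *gria3a*, an AMPA receptor subunit, at 33.1 in the SNa pool and 117 in the control pool (-1.82) and the lipid receptor *s1pr1*, the most abundant, at 8169.6 in the SNa pool and 16722 in the control pool (-1.03). *rtn4rl2a*, of the Nogo receptor family that limits axon growth, had 4889 normalized counts in the SNa pool and 20835 in the control pool (-2.09). Nuclear receptors had a median of 0.16, with *nr1h5* lowest (18.1 in the SNa pool and 94.4 in the control pool, -2.39) and the progesterone receptor *pgr* at 0.21.

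Other families held single genes far from their medians. *slc18a1*, a transporter that loads monoamines into vesicles, had 6.02 normalized counts in the SNa pool and 170.1 in the control pool (-4.82, interval -7.88 to -2.94), in a family of synaptic and neuronal genes with a median of 0.18. The keratin *krt17* had 468 normalized counts in the SNa pool and 2351 in the control pool (-2.33), while *krt8*, the most abundant keratin, had 496505 normalized counts in the SNa pool and 550499 in the control pool (-0.15). *tnni1al*, a troponin of muscle, had 24.1 normalized counts in the SNa pool and 276 in the control pool (-3.52). *iqgap3*, a scaffold of small GTPases in dividing cells, had 21.1 normalized counts in the SNa pool and 91.0 in the control pool (-2.11), and *ube2t*, a ubiquitin conjugase of DNA repair, had 21.1 normalized counts in the SNa pool and 86.4 in the control pool (-2.04). The prostaglandin receptor *ptger4c* had 21.1 normalized counts in the SNa pool and 87.7 in the control pool (-2.06). On the higher side, *map1b*, a microtubule protein of growing axons, had 72.2 normalized counts in the SNa pool and 32.6 in the control pool (1.15), *prkcq*, a protein kinase C, had 218 normalized counts in the SNa pool and 101 in the control pool (1.11), and *casp6l1*, a caspase, had 120.4 normalized counts in the SNa pool and 55.8 in the control pool (1.11).

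Large families of general cell functions showed little difference as groups. Chromatin modifiers had a median of 0.010 over 169 symbols, with 2 at least 2-fold lower (against 3.54% of all symbols). Among them was *hmgn2*, a nucleosome-binding protein (1108 normalized counts in the SNa pool and 2386 in the control pool, -1.11). Small GTPases and their regulators had 0.11 over 226 symbols, ubiquitin ligases and conjugases 0.057 over 191, and the MAP kinase and PI3 kinase cascade 0.14 over 150. Chaperones had a median of -0.015 over 90 symbols, with *hspa8*, the most abundant, at 0.12. Genes of ER folding had a median of 0.17, with *hspa5*, the main ER chaperone, at 0.23. Amino acid transporters had 30 of 39 above 0 and a median of 0.19, against the low ratio of *slc1a3b*. Iron genes had a median of 0.26, with *steap4* and transferrin *tfa* (0.88) at the top and ferritin *fth1a* at -0.20. Histones were lower in 8 of 9, with a median of -0.33.

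Of the other genes listed by name in the study, *hspb11*, annotated as a small heat shock protein, had 1451 normalized counts in the SNa pool and 4776 in the control pool (-1.72, with -1.62 in the SKF cultures). *grapa*, an adaptor of receptor kinases, had 820.1 normalized counts in the SNa pool and 845 in the control pool (-0.044). *trnt1*, which adds the CCA end to tRNAs, had 984 normalized counts in the SNa pool and 1109.8 in the control pool (-0.17). The study reported both genes, like the others it listed, as lower with SNa. Its quantitative PCR also found *grapa*, *fgf4*, *nab1a*, *smad6b* and *baiap2b* lower. Its fold changes were for assembled transcripts, whereas the ratios here are for sums over all transcripts of a symbol, so the 2 are not like measures. The 3 transcripts of *hspb11* ran from -4.70 to -0.30, and the most abundant of them lay at -0.30. *baiap2b* was not among the kept symbols because its transcripts carried no gene name in that column.

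Markers of other cell types were checked beside these results, and their part in the results was not tested. Fibroblast markers were found for 7 of 7 genes, with 2009697 normalized counts in the SNa pool and 1269991 in the control pool. All 5 kept ones were above 0 and 1 was at least 2-fold higher (against 51.1% and 0.499% of all symbols). Pericyte and smooth muscle markers were found for 7 of 7, with 928595 in the SNa pool and 766915 in the control pool. Of the 6 kept ones, 4 were above 0, among them *acta2* (0.68), and 2 were below. These were *rgs5b* (3587 in the SNa pool and 11391 in the control pool, -1.67) and *tagln* (-0.11). The scarce *rgs5a* was lower as well (3.01 in the SNa pool and 6.65 in the control pool). The fibroblast and mural lists share collagen and actin genes with the families above. The defining genes *pdgfra* and *tcf21* were scarce in both pools and not kept. They had 66.2 and 9.03 normalized counts in the SNa pool and 29.9 and 6.65 in the control pool (1.15 and 0.44). Epithelial keratins were abundant in both pools (789519 in the SNa pool and 894676 in the control pool), whereas *epcam* had 60.2 in the SNa pool and 67.8 in the control pool. Lens markers came to 555 in the SNa pool and 29588 in the control pool. Endothelial markers came to 3207 in the SNa pool and 10421 in the control pool, nearly all from *cldn5a*, and *kdrl* and *pecam1* were not found. The claudin *cldn5b* was lower as well (78.2 in the SNa pool and 142 in the control pool). *cdh5* went the other way (129 in the SNa pool and 77.1 in the control pool, 0.75), as did the scarce *tie1* (12.0 and 2.66). Microglial markers came to 4636 in the SNa pool and 3357 in the control pool, with *csf1ra*, *csf1rb* and *mpeg1* not found. Neuronal markers had 1211 in the SNa pool and 1657 in the control pool, oligodendrocyte markers had 1461 in the SNa pool and 1649 in the control pool, and blood markers had 18.1 in the SNa pool and 83.1 in the control pool. The summed markers of pituitary, skeletal muscle, pigment cells and photoreceptors each stayed below 1000 normalized counts in both pools. Skeletal actin *acta1a*, which was not on the muscle list, had 60144 normalized counts in the SNa pool and 39892 in the control pool (0.59).

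Summing over transcripts hid some disagreement. Of 9682 symbols with at least 2 transcripts at a mean of 10 or more, 4957 (51.2%) had transcripts on both sides of 0, and the median spread within a symbol was 0.597. Among the 2-fold lower symbols with such transcripts, 281 of 338 had every one of them below 0, and among the 2-fold higher ones 35 of 42 had every one above. Since these symbols were called on the sum of the same transcripts, this agreement was partly set by the call and is description only. Pairs of symbols that differ only in a final a or b gave a further measure. Teleost genomes keep many duplicated copies under such names. The pairs were found by name alone, so older relatives such as *top2a* and *top2b* are among them. Over 937 pairs the median difference between members was 0.291, and 62 pairs differed by at least 1. In 8 of the 937 pairs both members were at least 2-fold lower, and in 40 pairs only 1 member was (against 3.54% of all symbols). *cd9a*, a tetraspanin with 16.6 normalized counts in the SNa pool and 105 in the control pool (-2.67), and its copy *cd9b* (-0.036) were one such pair, as were *crlf1a* and *crlf1b* (0.46).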

How the data were processed

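RNA from primary RGC cultures was sequenced as read pairs. The authors assembled the reads of all groups with Trinity, clustered the contigs into unigenes (assembled transcripts), named each by its best protein hit and pooled the cultures of a group. The deposited tables hold, per unigene and group, a signal in normalized counts (pooled reads divided by a DESeq size factor), and the authors also gave the percent identity of each hit. Their fold changes, p and q values were not used.

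Both values were summed over unigenes with the same first gene name word in lower case, and log2 ratios of SNa over control were computed with Python 3.11.15, pandas 2.3.3, numpy 2.4.6, scipy 1.17.1 and matplotlib 3.10.9. One read was worth 1.50 normalized counts in the SNa pool and 0.665 in the control pool, and all values were whole multiples of this within 0.01. Read numbers per unigene were even in 79.7% of cases in the SNa pool and 74.8% in the control pool, so mates of a pair were taken to be counted apart and reads were divided by 2 before each interval was computed, and the median half-width was 0.172 on the log2 scale. A symbol was called at a log2 ratio of at least 1 in either direction.

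Members, families and role groups were chosen with earlier results of these data known. Named symbols were the 15 highest and 15 lowest that are not clone or locus names, the 10 largest differences in normalized counts on each side, the most abundant, highest and lowest members of described families, the genes listed by name in the study and the granins; further members that show a role, and the role groups within families, were chosen after their values were seen. Symbols of clones and loci numbered 2241 of the kept ones. Sequences are not shown.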

Additional observations from a re-analysis of the deposited data

Results flagged for a closer look

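Unigenes without a gene symbol were outside the sums and held 17.7% of the SNa reads and 18.8% of the control reads. Of 24703 such unigenes with a mean of at least 50, 522 (2.11%) were at least 2-fold higher in the SNa pool and 2471 (10.0%) at least 2-fold lower, with a median log2 ratio of -0.15. The most abundant of the higher ones that also had no protein hit, unigene number 7973, had 26519 normalized counts in the SNa pool and 335 in the control pool, a log2 ratio of 6.31. No culture values exist for it, and its identity was not determined here.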

How the results depend on the processing

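No paired analysis was possible because the tables hold 1 pooled value per group, and for the same reason no culture could be left out. The counts of symbols past 2-fold depended on the abundance minimum. A minimum mean of 10 gave 321 higher and 909 lower symbols, a minimum of 200 gave 12 higher and 279 lower, and a call at a log2 ratio beyond 0.5 gave 1412 higher and 1637 lower. The higher symbols were fewer with a pseudocount of 10 (42) and with unigenes numbered under 100000 only (33). Under the other settings (most abundant unigene alone, values as a share of the pooled reads, centring on the median, identity of at least 80%, a and b copies joined) between 60 and 92 symbols were higher and between 387 and 499 lower. Of the 489 lower symbols, 380 stayed lower by 2-fold with the most abundant unigene alone and 379 with unigenes numbered under 100000, and of the 69 higher symbols 34 and 20 did. Under these settings, 92 and 101 of the lower symbols were no longer kept and had no ratio. The same held for 30 and 43 of the higher ones. Joining copies turned the sign of 1 of the 489. Between 2 and 3 families had a median of at least 0.5 and between 4 and 7 a median of -0.5 or less under the settings tried. Taking values as a share of the pooled reads moved all log2 ratios by 0.012. Among named symbols, *hspb11* lay at -0.30 with its most abundant unigene, *socs1a* at -0.90, and, with unigenes numbered under 100000, *npas2* lay at -0.95, *nrxn3a* at 0.38 and *hmox1a* at -0.12. The cause was not tested.

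Depth limits scarce symbols: 1 read is worth more in the SNa pool, and a symbol near a mean of 50 rests on few reads there. The spread between cultures is unknown, so no ratio can be set against it.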

Other observations

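Some symbols named for clones or loci had reads in one pool only. *d623_10023611*, named for a nucleoprotein, had 0 reads in the SNa pool and 66925 in the control pool. *h671_21525* had 419 reads in the SNa pool and 0 in the control pool, and *m91_21448* had 113 in the SNa pool and 0 in the control pool. Their names come from the best protein hit alone.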
